A study of Mus musculus with 39 samples.

Results

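RNA of left ventricular tissue was compared between a genetic and an ischemic form of heart failure in C57BL6/J mice. The main comparison used 15 of the 39 libraries of the study, and these were taken by their labels: the 4 homozygous Pln R14del hearts and the 3 wild type hearts of 8 weeks, both without surgery, the 4 wild type hearts with myocardial infarction, and the 4 wild type sham hearts. A further 4 homozygous R14del and 4 wild type hearts of 5 weeks, without surgery, were compared in a fit of their own. R14del removes the codon for arginine 14 of phospholamban and was homozygous (R14del/R14del) in all mutant hearts used here. The infarcted hearts were 20 weeks old, 8 weeks after permanent ligation of the left anterior descending coronary artery, and their tissue was taken remote from the infarct. Of the shams, 2 were 20 weeks old, 8 weeks after surgery (replicates 2 and 3), and 2 were 12 weeks old, 3 days after surgery (replicates 1 and 4). The surgery set was of male mice operated at 12 weeks, by its protocol. The question was which genes changed alike in both forms of disease and which changed with the mutation alone, and it was answered with the difference (R14del minus wild type) minus (infarction minus sham) across all genes.

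Phospholamban sits in the membrane of the sarcoplasmic reticulum and restrains the calcium pump SERCA2a, the product of Atp2a2, and R14del is a known cause of inherited cardiomyopathy in people. A failing ventricle of almost any origin is known to turn on natriuretic peptide and other fetal genes, to lay down matrix and to lower the genes of fatty acid oxidation. Because these changes are common to many causes, setting a mutant heart beside an infarcted heart asks which changes the diseases have in common and which were called in one of them.

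Depth lay between 9.4 M and 18.4 M counts per library, with 15.9 M to 17.5 M in R14del, 14.6 M to 18.4 M in wild type, 10.8 M to 14.1 M in infarcted and 9.4 M to 13.3 M in sham hearts, and the 5-week hearts had 9.78 M to 12.0 M. No 2 libraries of a group held the same counts, and each was kept as 1 sample. Which library came from which animal is not given in the labels, and a p-value therefore speaks only of the spread among these libraries, part of which may be technical. Some libraries stood apart. Mitochondrially encoded genes took 15.5% of counts in R14del replicate 1, against 8.27% to 10.6% in the other 3 R14del hearts, and this heart lay nearest to wild type for several genes below. Sham replicate 4, of 12 weeks, had 8858 CPM (counts scaled by library size to a common total) of Myh7, the slow myosin heavy chain, against 291 to 996 CPM in the other shams. Infarct replicate 3 held 95.5 CPM and replicate 4 held 24.1 CPM of Alb, the liver gene for albumin, against 0.166 and 0.267 CPM in the other 2. Tissue markers were in place: the 13 cardiomyocyte genes listed summed to at least 32750 CPM in every library. The mutant and surgery sets also differ in age and surgery, so a difference between the effects cannot be told apart from what age or surgery adds to either effect.

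Far more genes changed with the mutation than after infarction. Of 14321 genes tested, 8178 (57.1%) were called between R14del and wild type hearts, with 4253 (29.7%) higher and 3925 (27.4%) lower, where called means a Benjamini-Hochberg adjusted p below 0.05 in edgeR's quasi-likelihood test. After infarction 1317 genes (9.2%) were called against sham, 813 (5.68%) higher and 504 (3.52%) lower. The mutant effect itself was larger across genes: its median absolute log2 fold change was 0.49, against 0.19 for infarction, while the median standard errors were alike at 0.16 and 0.15. The difference of the effects was called for 4707 genes (32.9%), positive for 2362 (16.5%) and negative for 2345 (16.4%), where positive means a more positive change with the mutation. Across genes the effects correlated with Pearson's r of 0.49 and Spearman's rho of 0.48, a description over genes, which are not independent replicates. Scaling by library totals alone moved the median change of all genes to 0.18 for the mutant and 0.11 for infarction, against 0.03 and 0.00 with the scaling used here. With it the split of calls became 5120 higher and 2917 lower in R14del hearts, and 1096 higher and 250 lower after infarction.

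**Figure D1:**
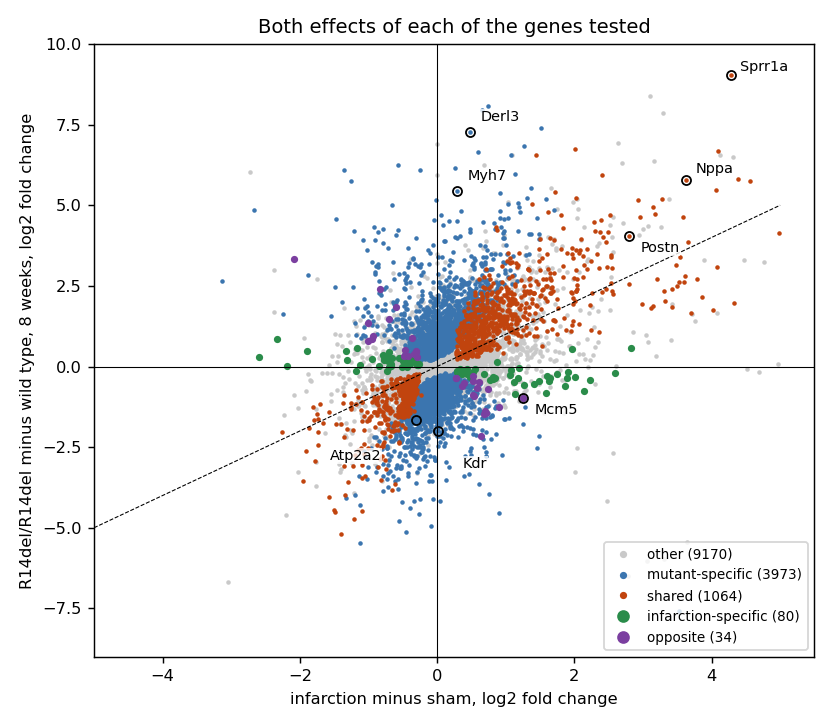
Each point is 1 of the genes tested, with its log2 fold change after infarction on the horizontal axis and in R14del hearts of 8 weeks on the vertical axis; colours give the classes with their number of genes, and the dashed line marks equal effects. Shared rises such as Nppa and Sprr1a lie above the dashed line, Derl3 and Myh7 lie high near an infarction effect of 0, and 2 genes fall outside the axes.

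Genes were sorted into classes by these tests. A gene is shared when it was called in both effects with the same sign, and mutant-specific when it was called in R14del hearts, not called after infarction, and its difference was called with the sign of the mutant effect. Shared genes numbered 1064, of which 676 rose (4.72% of genes tested) and 388 fell (2.71%). They made up 80.8% of all infarction calls and 13% of all mutant calls. The change was larger in R14del hearts for 453 shared genes and larger after infarction for 1, and for 610 the difference was not called. Mutant-specific genes numbered 3973, with 1945 higher (13.6%) and 2028 lower (14.2%). For 2649 of these (66.7%) the 95% interval of the infarction effect lay within 1.5-fold either way; for the others infarction effects beyond that size remain possible. A further 3107 genes were called in R14del hearts alone without a called difference and belong to neither class. Infarction-specific genes were few, 41 higher (0.286%) and 39 lower (0.272%), and 34 genes (0.237%) were called in opposite directions. By library totals alone, shared genes split into 868 higher and 198 lower, infarction-specific genes into 64 and 16, and opposite genes into 5 higher and 27 lower in R14del hearts, against 17 and 17 here. The counts that rest on infarction calls varied with the libraries: leaving out 1 library at a time gave 474 to 1365 shared genes, with the lowest count without infarct replicate 2. The class of a single gene near the threshold could move in the same way.

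The natriuretic peptide and stress genes rose in both diseases. Of 16 such genes, 15 rose in R14del hearts and 9 rose after infarction, all 9 of them shared, and the median log2 change was 2.34 in R14del hearts and 1.10 after infarction, against 0.03 and 0.00 over all genes. Nppa, the atrial natriuretic peptide gene (chromosome 4, 148000722 to 148002079, GRCm38), stood at 12630, 17740, 11150 and 14140 CPM in R14del hearts, against 197, 346 and 214 CPM in wild type. In infarcted hearts it stood at 2626, 4651, 2375 and 2193 CPM, against 356, 166, 221 and 211 CPM in shams. No values overlapped in either comparison, and every R14del heart lay above every infarcted heart. The rise was 55.2-fold in R14del hearts and 12.4-fold after infarction, and the difference was called (log2 2.15 ± 0.40 SE, adjusted p = 0.000807). Its relative Nppb rose 6.61-fold and 2.52-fold, and Ankrd1, which encodes a stretch-responsive sarcomere protein, rose 3.89-fold and 2.16-fold, with the difference called for both. The difference of Nppb was not called in the fit of all 39 libraries. That of Ankrd1 (adjusted p = 0.0381) was not called in 13 of 25 alternatives, among them the 20-week shams alone, leaving out any wild type heart, R14del replicate 1 or 2, infarct replicate 1, 3 or 4, or sham replicate 2 or 4. Sprr1a, a small proline-rich stress protein, rose most, 527-fold in R14del hearts and 19.4-fold after infarction (adjusted p of the difference 0.0136); the difference was not called without sham replicate 4 (adjusted p = 0.0553), with the 20-week shams alone (adjusted p = 0.235) or by limma-voom. Gdf15, a secreted stress cytokine, rose 25-fold and 7.75-fold, and here the difference was not called (adjusted p = 0.0734).

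The class of Myh7 was decided by 1 sham. Myh7 rose 43.2-fold in R14del hearts, at 4316, 4461, 3037 and 3487 CPM, against 132, 69.5 and 63.4 CPM in wild type. Infarcted hearts held 3396, 4215, 2762 and 2571 CPM, close to the R14del hearts, against 291, 996, 464 and 8858 CPM in shams. With all shams the infarction effect was not called (1.22-fold, adjusted p = 0.846), which made Myh7 (chromosome 14, 54970684 to 54994626) mutant-specific. Without sham replicate 4 the infarction effect was 5.55-fold (adjusted p = 0.00154) and Myh7 was shared and larger in R14del hearts (adjusted p of the difference 0.000544). With the 20-week shams alone it was 4.42-fold (adjusted p = 0.00585), again shared. The same sham had the lowest Myh6, the fast myosin heavy chain, at 13730 CPM against 24460 to 25610 CPM in the others. Acta1, skeletal actin and another fetal gene, had 1253, 84.1, 247 and 803 CPM in R14del hearts and 453, 812 and 644 CPM in wild type, which overlap, and 1073 to 2031 CPM after infarction, against 196 to 568 CPM in shams. Neither effect was called with all libraries, but without R14del replicate 1 Acta1 was infarction-specific (adjusted p = 0.0303 for infarction).

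Matrix genes formed another shared block. All 14 collagens called after infarction rose, and 13 of the 19 tested were shared; 15 rose in R14del hearts, and the medians were 2.06 in R14del hearts and 0.90 after infarction. The rise was larger in R14del hearts for 3 collagens by the test of the difference, Col1a2, Col5a2 and Col14a1, of which Col5a2 and Col14a1 lost that call with the 20-week shams alone (adjusted p = 0.0666 and 0.347). Col15a1 differed in the other direction, at 0.666-fold in R14del hearts and 1.87-fold after infarction (adjusted p of the difference 0.0201). Col8a1, a short-chain collagen, had 180, 197, 264 and 307 CPM in R14del hearts, against 35.5, 37.4 and 36 CPM in wild type, and 133, 191, 101 and 101 CPM in infarcted hearts, against 42.9, 23.2, 33.6 and 27.8 CPM in shams. Neither comparison had overlapping values, and the difference was not called (adjusted p = 0.114). Col3a1, an abundant fibrillar collagen, rose 4.32-fold in R14del hearts and was not called after infarction (1.80-fold, adjusted p = 0.133). The number of shared collagens was 7 without wild type replicate 1 or 2, R14del replicate 3 or sham replicate 2, and 8 without infarct replicate 2. Without R14del replicate 4, 12 collagens rose and 3 fell in R14del hearts, 16 rose after infarction, and 11 were shared.

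Matricellular proteins, which sit in the matrix and signal to cells, followed the collagens with a wider gap. Of 26 tested, 25 rose in R14del hearts and 22 after infarction, 21 were shared, and the difference was positive for 15 and negative for 1, Cilp2 (adjusted p = 0.0403), which was not called in 13 of 25 alternatives, DESeq2 and library totals alone among them, nor without wild type replicate 2, R14del replicate 1 or 2, infarct replicate 1, 2 or 3, or sham replicate 2, 3 or 4. Postn, or periostin, a product of activated fibroblasts, had 916, 962, 1329 and 1457 CPM in R14del hearts and 61.7 to 78.1 CPM in wild type. In infarcted hearts it had 405, 781, 406 and 291 CPM, against 43.8 to 95.3 CPM in shams. Groups were apart in both comparisons, with a 16.6-fold rise in R14del hearts and a 6.98-fold rise after infarction (adjusted p of the difference 0.0305). That difference of Postn was not called in 11 of 25 alternatives, among them the 20-week shams alone (adjusted p = 0.0627), the replicate block, and leaving out wild type replicate 1 or 2, R14del replicate 3, infarct replicate 1, 3 or 4, or sham replicate 1 or 3. Comp, cartilage oligomeric matrix protein, rose 102-fold and 17.1-fold, Thbs4, a thrombospondin, 36.5-fold and 9.71-fold, and Cilp 30.8-fold and 8.82-fold, each larger in R14del hearts. Thbs2, in contrast, was mutant-specific, with 61.2, 207, 172 and 130 CPM in R14del hearts, against 28.8 to 32.6 CPM in wild type, and 30.1 to 44.5 CPM in infarcted hearts, against 27.3 to 40.3 CPM in shams. Infarcted and sham hearts overlapped for Thbs2, with an effect of 1.01-fold. Markers of activated fibroblasts moved with the matrix genes: 10 of 12 rose in R14del hearts and 9 after infarction, and they summed to 2747 to 3867 CPM in R14del hearts, against 305.1 to 349.0 CPM in wild type, and to 1001 to 2170 CPM in infarcted hearts, against 235.7 to 419.0 CPM in shams. Several of these markers, Postn among them, are matrix genes themselves, and the part of the cells in the matrix rises was not tested.

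For other shared rises no difference was called. Sfrp2, a secreted modulator of Wnt signalling, had 65.6, 48.1, 53.4 and 79 CPM in R14del hearts, against 6.24, 3.46 and 2.74 CPM in wild type, and 86.2, 76.5, 42.6 and 50.3 CPM in infarcted hearts, against 6.04, 2.30, 5.85 and 5.71 CPM in shams. The rises were 14.6-fold and 12.6-fold, and the 95% interval behind the difference (log2 0.22 ± 0.43 SE, adjusted p = 0.730) still allows unequal effects. Ltbp2, a latent TGF-beta binding protein, rose 24.8-fold and 12.0-fold, with no called difference (adjusted p = 0.0875), although the difference was called without sham replicate 4 (adjusted p = 0.0161) and without infarct replicate 2 (adjusted p = 0.0253). Within the list of TGF-beta, activin and BMP genes, 15 of 18 rose in R14del hearts and 12 after infarction, all 12 shared. Fst, follistatin, Bmp4 and Bmp6 were mutant-specific rises, at 17.1-fold, 2.88-fold and 2.55-fold in R14del hearts and 2.58-fold, 1.22-fold and 1.02-fold after infarction. Of 22 genes for matrix crosslinking and proteolysis, 18 rose and 3 fell in R14del hearts and 13 rose after infarction; Mmp3, a secreted protease, was mutant-specific (31.1-fold, against 2.29-fold after infarction, not called).

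**Figure D2:**
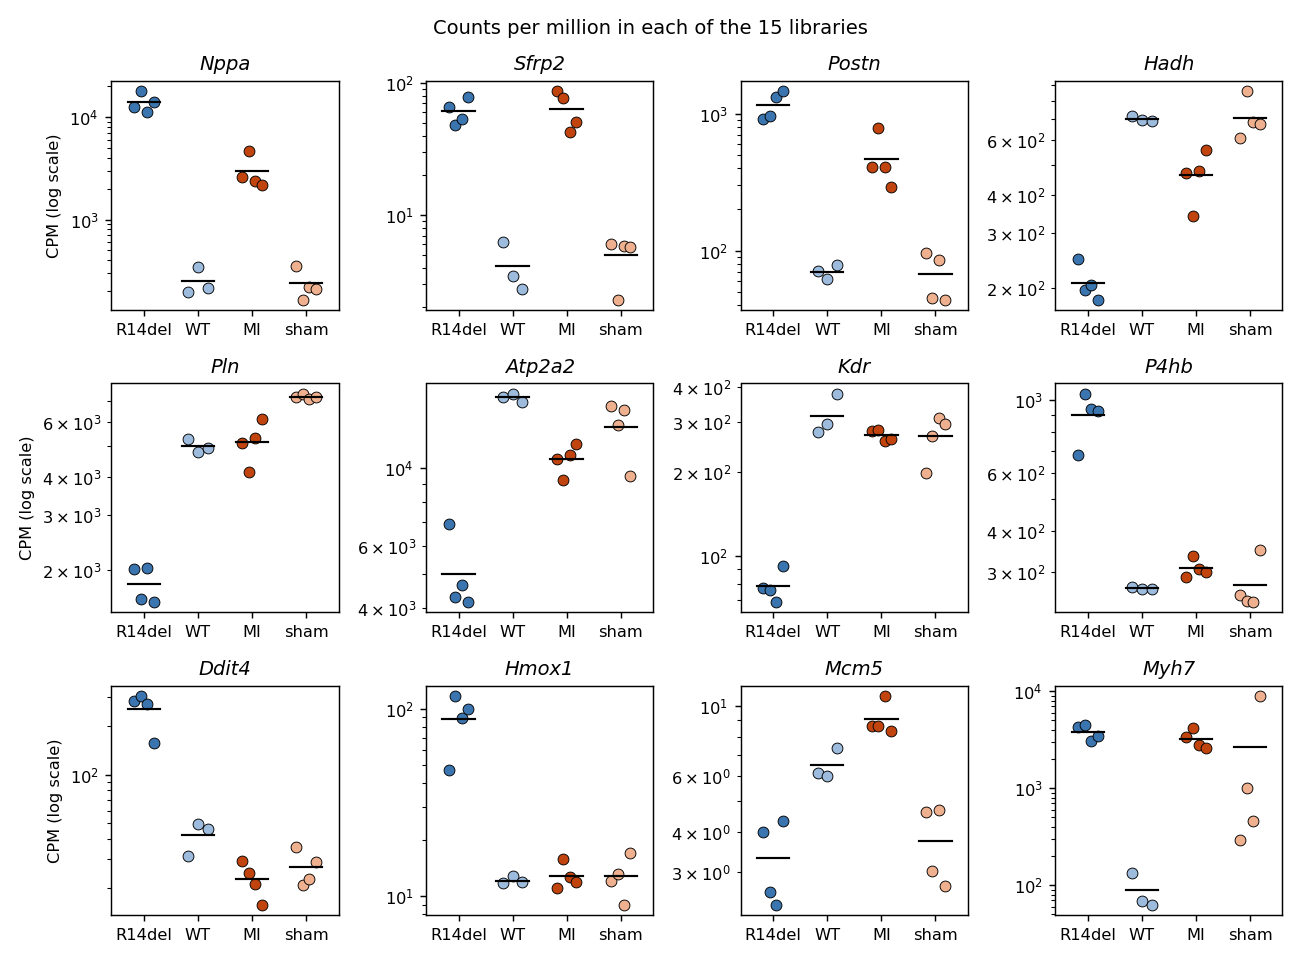
CPM of 12 genes in each library on a logarithmic vertical axis, with a point per heart and a bar at the group mean, for R14del, wild type (WT), infarcted (MI) and sham hearts. Nppa, Sfrp2 and Postn were high in both diseases, Hadh and Pln lower in both, Atp2a2, Kdr, P4hb, Ddit4 and Hmox1 moved in R14del hearts, Mcm5 went in opposite directions, and 1 sham at 8858 CPM stands out for Myh7.

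The shared falls were led by fatty acid oxidation, the main fuel pathway of the adult heart. Of 30 genes tested, 27 fell in R14del hearts and 11 after infarction, and all 11 were shared. The median log2 change was -1.17 in R14del hearts and -0.44 after infarction. Hadh, which encodes the short-chain hydroxyacyl-CoA dehydrogenase, had 248, 197, 204 and 184 CPM in R14del hearts, against 719, 694 and 690 CPM in wild type, and 468, 342, 477 and 557 CPM in infarcted hearts, against 609, 860, 684 and 677 CPM in shams. Neither comparison had overlapping values. The fall was to 0.297 of wild type and to 0.652 of sham, larger in R14del hearts (adjusted p = 0.000619). Acaa2, Eci1, Hadha, Hadhb, Echs1, Etfb, Decr1 and Acadm showed the same pattern of a larger fall in R14del hearts. Acsl1 and Cpt2, which activate fatty acids and carry them into mitochondria, and Ucp3, an uncoupling protein, were among 9 mutant-specific falls. Ucp3 had 10.2, 23.5, 7.75 and 12.7 CPM in R14del hearts, against 124.5, 88.3 and 92.7 CPM in wild type, while infarcted hearts had 34.1 to 111 CPM and shams 59.7 to 69 CPM, which overlap.

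Of 20 genes of glycolysis and glucose uptake, 9 rose and 7 fell in R14del hearts, beside 29.7% and 27.4% of all genes tested. After infarction 3 rose and 1 fell, beside 5.68% and 3.52% of all genes. The infarction counts were 1 and 0 without infarct replicate 1, 2 and 0 without infarct replicate 2, 3 and 0 without sham replicate 2, and 3 and 3 without R14del replicate 1. Eno3, the muscle enolase, was a mutant-specific fall (0.266 in R14del hearts, 0.777 after infarction), whereas Eno1, the enolase of most other cells, was a shared rise (1.81-fold and 1.40-fold). The muscle phosphofructokinase gene Pfkm was at 0.441 and 0.79, and the platelet isoform gene Pfkp rose 2.93-fold and 1.92-fold. The insulin-regulated glucose carrier gene Slc2a4 fell to 0.348 in R14del hearts and Slc2a1, the basal carrier, rose 2.66-fold, both mutant-specific.

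Nuclear genes of the respiratory chain fell without exception in R14del hearts, 32 of 32, and 8 of them were called lower after infarction. Cox7a1, a heart isoform of cytochrome oxidase, fell to 0.256 in R14del hearts and to 0.654 after infarction (adjusted p of the difference 0.000601). The tricarboxylic acid cycle and branched-chain amino acid genes gave the same picture, with 27 of 27 lower in R14del hearts and 6 after infarction. These infarction calls were small changes near the threshold and moved with the libraries. With the 20-week shams alone edgeR called 0 respiratory chain genes and 1 gene of the other list after infarction. Mutant-specific falls of the respiratory chain then numbered 12, against 20 with all shams. With a minimum change of 1.5-fold they numbered 1, and shared falls in fatty acid oxidation 0. Of the 8 in the respiratory chain, 0 were left without infarct replicate 1 or 2 (by edgeR, where 23 of the 32 had an unadjusted p under 0.05 with all libraries), 1 without sham replicate 2 or 4, 3 without sham replicate 3, 5 without wild type replicate 2, and there were 19 without R14del replicate 1 and 13 by DESeq2. Shared falls in fatty acid oxidation came to 2 without infarct replicate 2, 4 without sham replicate 2, 5 without infarct replicate 1 and 7 without infarct replicate 3, and to 17 without R14del replicate 1 and 18 by DESeq2. Of the 8 mitochondrially encoded genes tested, 7 were lower in R14del hearts, falling to between 2 and 4 without wild type replicate 1 or 2 or R14del replicate 2 or 4. After infarction edgeR called 0 of them, as did DESeq2 and limma-voom, with 0 at an unadjusted p under 0.05, and the same held for the difference, which was called for 7 without R14del replicate 1. Their median log2 change after infarction was still -0.28. Mitochondrially encoded genes took 18.4% to 22.8% of counts in infarcted hearts, against 23.1% to 26.0% in shams, so the missing calls do not show an unchanged level. In bulk tissue, fewer cells of a type and less RNA per cell cannot be told apart.

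Most genes for ion channels of the cardiomyocyte fell in R14del hearts, and fewer were called after infarction. Of 22, 17 fell and 1 rose in R14del hearts, 6 fell and 1 rose after infarction, and the difference was negative for 15. Kcnv2, a modulatory potassium channel subunit, had 1, 0.356, 0.513 and 0.702 CPM in R14del hearts, against 13.1, 15.8 and 14.9 CPM in wild type, and 4.06, 2.58, 4.36 and 4.85 CPM in infarcted hearts, against 8.97, 9.43, 11.6 and 14.6 CPM in shams. It fell in both with no overlap, and further in R14del hearts (adjusted p of the difference 3.43e-05). Kcnd2 and Kcnip2, subunits of the transient outward current, and Clcn1, a chloride channel, were likewise shared and larger in R14del hearts. The sodium channel genes Scn4a and Scn4b were mutant-specific, at 0.103 and 0.0944 of wild type in R14del hearts and 0.813 and 0.748 of sham after infarction.

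Genes of calcium handling fell in R14del hearts. Of 22, 15 fell and 3 rose there, beside 27.4% and 29.7% of all genes tested. After infarction edgeR called 1 lower and 0 higher (3 and 3 at an unadjusted p under 0.05, 2 and 2 by DESeq2, 1 and 0 by limma-voom), beside 3.52% and 5.68% of all genes. Atp2a2 (chromosome 5, 122453513 to 122502225) had 6940, 4293, 4657 and 4163 CPM in R14del hearts, against 15870, 16180 and 15370 CPM in wild type. Infarcted hearts had 10590, 9220, 10830 and 11670 CPM, against 14990, 13190, 14550 and 9471 CPM in shams. R14del and wild type hearts were far apart, and infarcted hearts overlapped shams only through sham replicate 4. The fall was to 0.317 in R14del hearts and to 0.811 after infarction (not called, adjusted p = 0.318), with a called difference (log2 -1.35 ± 0.26 SE, adjusted p = 0.00109) that was also called without that sham (adjusted p = 0.00192). Pln itself was the 1 calcium gene called in both. It had 2010, 1609, 2032 and 1576 CPM in R14del hearts, against 5285, 4801 and 4939 CPM in wild type, and 5132, 4145, 5317 and 6141 CPM in infarcted hearts, against 7223, 7383, 7108 and 7230 CPM in shams. No values overlapped, and the fall to 0.361 in R14del hearts exceeded the fall to 0.716 after infarction (adjusted p = 0.00117). The infarction call for Pln was lost without sham replicate 4 (adjusted p = 0.0583), and also without sham replicate 2 or infarct replicate 1, 2 or 3 (adjusted p of 0.0615 to 0.117). A deleted codon leaves no trace in a count per gene, and the genotype was not checked by this level.

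Other calcium genes fell further than Pln. Hrc, a histidine-rich protein that buffers calcium in the reticulum, was at 0.178 of wild type in R14del hearts and 0.715 of sham after infarction. Adrb1, the beta-1 adrenergic receptor, was at 0.28 and 1.25, and Akap5, which anchors protein kinase A, at 0.0418 and 0.835. Akap5 was at 0.294, 0.152, 0.308 and 0.432 CPM in R14del hearts, against 5.88 to 8.56 CPM in wild type, and at 3.29 to 7.02 CPM in infarcted hearts, against 5.56 to 7.52 CPM in shams. Of 22 sarcomere genes, 11 fell and 2 rose in R14del hearts, beside 27.4% and 29.7% of all genes tested. After infarction 1 rose and 0 fell by edgeR (3 falls at an unadjusted p under 0.05, 2 by DESeq2, 0 by limma-voom), beside 5.68% and 3.52% of all genes. Mutant-specific falls numbered 7, beside 14.2% of all genes, or 11 without R14del replicate 1. Myh6, Myl2, Myl3 and Tnni3, all parts of the contractile filaments, were at 0.336, 0.437, 0.385 and 0.363 of wild type in R14del hearts. Ckm, the muscle creatine kinase, was at 0.204, with R14del replicate 1 at 1177 CPM and the others at 385 to 446 CPM, all below the 2825 to 3178 CPM of wild type. Markers of the cardiomyocyte moved with these falls: 8 of 13 were lower in R14del hearts, and their sum lay at 32750 to 61010 CPM, against 85520 to 93910 CPM in wild type, and at 58810 to 73440 CPM after infarction, against 61980 to 82220 CPM in shams. Their part in the falls was not tested.

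Mutant-specific rises were frequent among genes for protein folding in the endoplasmic reticulum. Of 28 chaperones and other genes of the unfolded protein response, 23 rose and 1 fell in R14del hearts, while after infarction 1 fell, Herpud1, and 0 rose by edgeR, DESeq2 and limma-voom (2 at an unadjusted p under 0.05 in edgeR). The difference was positive for 18 and negative for 1, and 17 were mutant-specific rises, 60.7% of the list, beside 13.6% of all genes. The median log2 change was 0.79 in R14del hearts and 0.04 after infarction. P4hb, protein disulfide isomerase (chromosome 11, 120560298 to 120573253), had 681, 1045, 943 and 930 CPM in R14del hearts, against 269, 267 and 266 CPM in wild type. In infarcted hearts it had 290, 336, 307 and 300 CPM, against 255, 245, 243 and 350 CPM in shams, where sham replicate 4 was highest. The rise was 3.36-fold in R14del hearts and 1.13-fold after infarction (adjusted p of the difference 4.16e-05). Without sham replicate 4 the mutant-specific rises numbered 12, and with the 20-week shams alone 6, where the median infarction effect was 0.22. They numbered 9 without wild type replicate 2, 10 by limma-voom and 3 with a minimum change of 1.5-fold.

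Several of these genes carry the endoplasmic reticulum stress element, a motif known as a site for the stress factor ATF6 together with NF-Y. The letters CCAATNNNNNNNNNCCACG were searched on both strands in promoter windows from 250 bases before to 50 after the gene start (RefSeq, GRCm38.p6). Of the 28 listed genes 23 had a window, and 9 of these (39.1%) held an exact match, beside 16 of 10812 tested genes with a window (0.148%). The list was written from general knowledge of this response, so its share of matches is not a finding about these hearts. Among all mutant-specific rises with a window 6 of 1509 (0.398%) held a match, 5 of them genes of this list. Among all shared rises 0 of 492 held one. At the 0.148% of all genes, 492 windows are too few for a comparison of the classes. The 5 matches among the mutant-specific rises of the list are shown with 15 bases on either side, in the direction of the gene, the motif in capitals. Where it lies on the other strand it reads as its reverse complement.
Hspa5 (chr2:34772010-34772058, plus strand): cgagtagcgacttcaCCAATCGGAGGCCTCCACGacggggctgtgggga
Hsp90b1 (chr10:86705623-86705671, minus strand): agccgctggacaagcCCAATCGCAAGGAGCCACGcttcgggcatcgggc
Dnajc3 (chr14:118937812-118937860, plus strand): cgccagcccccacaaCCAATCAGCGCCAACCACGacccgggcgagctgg
Creld2 (chr15:88819505-88819553, plus strand): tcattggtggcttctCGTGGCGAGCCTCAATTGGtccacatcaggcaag
Derl3 (chr10:75893227-75893275, plus strand): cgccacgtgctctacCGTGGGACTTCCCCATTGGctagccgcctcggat
A match is a stretch of letters and not a measured site of binding.

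The genes behind these windows rose to very different degrees. Hspa5, the master chaperone BiP, had 586, 1775, 1211 and 1175 CPM in R14del hearts, against 704, 628 and 696 CPM in wild type, and 516 to 561 CPM in infarcted hearts, against 491 to 810 CPM in shams. R14del replicate 1 lay below the wild type hearts and the other 3 above them, and the effect was 1.75-fold, against 0.883-fold after infarction (adjusted p of the difference 0.0317), a difference not called without sham replicate 4 (adjusted p = 0.0703) or infarct replicate 1 (adjusted p = 0.0546). Hsp90b1, the chaperone GRP94, rose 1.78-fold, Dnajc3, a cochaperone and inhibitor of the kinase PERK, 2.13-fold, and Creld2, a folding factor, 3.13-fold. Derl3, of the degradation machinery of the endoplasmic reticulum, had 4.59, 32.8, 16.6 and 27.6 CPM in R14del hearts and at most 0.201 CPM in wild type, 0.534 CPM in infarcted and 0.378 CPM in sham hearts. The difference of Derl3 was not called with the 20-week shams alone (adjusted p = 0.234) or by limma-voom. Of the other 4 genes with a match, Calr and Pdia6 rose in R14del hearts (1.43-fold and 1.54-fold) without a called difference, and Canx and Syvn1 were not called in R14del hearts.

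The integrated stress response, which slows protein synthesis and turns on amino acid genes through the factor ATF4, was also called mainly in R14del hearts. Of 24 genes, 21 rose and 2 fell there, 5 rose and 1 fell after infarction, and 14 rises were mutant-specific, with medians of 1.74 and 0.07. Mthfd2, of mitochondrial one-carbon metabolism, had 22, 36.9, 27 and 22.4 CPM in R14del hearts, against 3.03, 2.66 and 3.48 CPM in wild type, and 8.78, 10.1, 8.71 and 5.66 CPM in infarcted hearts, against 3.78, 5.56, 10.1 and 3.63 CPM in shams. R14del hearts were clear of wild type, whereas infarcted hearts and shams overlapped; the effects were 8.85-fold and 1.42-fold (adjusted p of the difference 0.000244). Psat1 and Asns, enzymes of serine and asparagine synthesis, rose 5.07-fold and 4.66-fold in R14del hearts, at 1.09-fold and 1.12-fold after infarction. Ddit4, an inhibitor of the growth kinase mTOR (chromosome 10, 59949669 to 59951834), had 284, 304, 275 and 157 CPM in R14del hearts, against 31.5, 49.4 and 46.1 CPM in wild type, and 15.8 to 29.3 CPM in infarcted hearts, against 20.9 to 35.9 CPM in shams. Shared members were Nupr1 (10.2-fold and 2.90-fold, larger in R14del hearts), Gdf15, Pycr1, Atf5 and Aldh18a1 as rises and Vldlr as a fall. Shared rises numbered 2 with the 20-week shams alone, and 3 without infarct replicate 2 or 3, sham replicate 2 or wild type replicate 1 or 2. The infarction call of Vldlr was lost with the 20-week shams alone and by library totals alone. It was also lost without infarct replicate 1, 2 or 3 or sham replicate 2, 3 or 4. Mutant-specific rises came to 12 without sham replicate 4 and to 10 with the 20-week shams alone.

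In this list the motif TGATGNAA, the core of the element that ATF4 is known to bind, was searched in the same way. It matched in 9 of 23 windows (39.1%), beside 302 of 10812 (2.79%), and it does not overlap the letters of the first motif. This list too was written from general knowledge, and its share of matches is not a finding about these hearts. Among all mutant-specific rises with a window 55 of 1509 (3.64%) held a match, and among all shared rises 21 of 492 (4.27%). The 5 mutant-specific genes of the list with a match and the shared Nupr1 are shown so that they can be compared.
Asns (chr6:7693210-7693247, minus strand): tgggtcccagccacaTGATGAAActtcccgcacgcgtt
Trib3 (chr2:152344024-152344061, minus strand): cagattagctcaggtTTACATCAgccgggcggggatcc
Chac1 (chr2:119351034-119351071, plus strand): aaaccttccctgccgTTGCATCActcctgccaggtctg
Atf3 (chr1:191183421-191183458, minus strand): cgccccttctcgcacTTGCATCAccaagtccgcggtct
Slc7a11 (chr3:50443638-50443694, minus strand): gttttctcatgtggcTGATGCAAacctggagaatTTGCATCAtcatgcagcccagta
Nupr1 (chr7:126625558-126625595, minus strand): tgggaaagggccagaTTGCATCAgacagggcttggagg
Slc7a11, the cystine carrier, held 2 matches, and its level was 0.883, 4.27, 2.21 and 3.67 CPM in R14del hearts and at most 0.0562 CPM in wild type, 0.269 CPM in infarcted and 0.207 CPM in sham hearts, with a difference that was lost without sham replicate 4 (adjusted p = 0.216). Trib3, a pseudokinase, had 7.48, 18.8, 17.3 and 15.7 CPM in R14del hearts, against 4.21 to 4.68 CPM in wild type, and 3.32 to 5.05 CPM in infarcted hearts, against 3.73 to 4.09 CPM in shams. Among the genes with a match, Vldlr was called lower in both diseases with all libraries, so a match did not go with a rise in every case. Its infarction call moved with the libraries, as given above.

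Oxidative stress, lysosomal and macrophage genes also rose in R14del hearts. Of 21 antioxidant and related genes, 16 rose and 3 fell in R14del hearts, 5 rose and 1 fell after infarction, and 11 rises were mutant-specific. The infarction rises numbered 2 without infarct replicate 2 and 3 without sham replicate 2. Hmox1, heme oxygenase (chromosome 8, 75093621 to 75100589), had 46.9, 116, 89.2 and 99.1 CPM in R14del hearts, against 11.7, 12.8 and 11.8 CPM in wild type, and 11.1, 15.8, 12.6 and 11.9 CPM in infarcted hearts, against 12, 13.1, 9.03 and 16.9 CPM in shams. The mutant rise was 7.26-fold, and the infarction effect was 1.01-fold with overlapping values. Mt2, a metallothionein, was 15.8-fold higher in R14del hearts and at 0.81 after infarction. Among 22 autophagy and lysosome genes, 17 rose and 2 fell in R14del hearts and 3 rose after infarction (7 without R14del replicate 1, 6 by library totals alone and 5 by DESeq2), with 11 mutant-specific rises. Sqstm1, the autophagy receptor p62, was 2.77-fold higher in R14del hearts and at 0.963 after infarction.

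Of 17 macrophage markers, 16 rose and 1 fell in R14del hearts and 4 rose after infarction, or 1 without infarct replicate 2 or sham replicate 2 and 2 without sham replicate 3 or 4. The median was 2.25 in R14del hearts and 0.54 after infarction, and 10 rises were mutant-specific. With the 20-week shams alone 6 markers rose after infarction (median 0.85), and 7 rises were mutant-specific. The markers summed to 1083 to 2054 CPM in R14del hearts, against 303.5 to 367.8 CPM in wild type, and to 339.6 to 504.5 CPM in infarcted hearts, against 215.0 to 347.1 CPM in shams. Lgals3, galectin-3, a shared gene, had 89.2, 292, 211 and 262 CPM in R14del hearts, against 3.01 to 3.90 CPM in wild type, and 23.6, 23.2, 12.9 and 18.3 CPM in infarcted hearts, against 2.54 to 4.88 CPM in shams. It rose 61-fold and 5.27-fold with no overlap. Spp1 and Gpnmb, which macrophages of injured tissue make, rose 93.5-fold and 33.1-fold in R14del hearts and 2.72-fold and 2.60-fold after infarction. Cd68 and Csf1r, general macrophage markers, were mutant-specific at 4.77-fold and 2.74-fold, and Timd4, a marker of resident macrophages, fell to 0.275 in R14del hearts (1.35-fold after infarction). Lysosomal genes such as Ctss are also strongly expressed in macrophages, and the part of these cells in the lysosomal rises was not tested. Complement genes moved with them: 12 of 15 genes of complement and MHC class II rose in R14del hearts and 4 after infarction. The infarction rises numbered 1 without infarct replicate 2 and 2 without sham replicate 2. They numbered 6 without sham replicate 1 and with the 20-week shams alone. C3 was at 8.19-fold in R14del hearts and 1.46-fold after infarction.

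Acute phase and cytokine genes were called in R14del hearts. Of 20, 12 rose there, 7 of them mutant-specific (2 against the 20-week shams alone); after infarction 0 were called by edgeR and limma-voom, with 3 higher and 3 lower at an unadjusted p under 0.05, and DESeq2 called 2 lower. Serpina3n, a secreted protease inhibitor of the acute phase, had 885, 1898, 1386 and 707 CPM in R14del hearts, against 10.9, 12.9 and 8.29 CPM in wild type, and 51.3, 154, 47 and 36.5 CPM in infarcted hearts, against 25.5, 11.2, 16.7 and 65.8 CPM in shams. R14del hearts stood far above all others, and infarcted hearts and shams overlapped; the rise was 114-fold in R14del hearts, and the infarction effect of 2.42-fold was not called. Without sham replicate 4 that effect of Serpina3n was called (adjusted p = 0.0239), and the gene was shared and larger in R14del hearts. Ptx3, a pentraxin of innate immunity, rose 12.8-fold in R14del hearts (0.747 after infarction), and Socs3, an inhibitor of cytokine signalling, rose 3.44-fold (1.34-fold after infarction). Of 8 neutrophil markers 4 passed the filter on low counts, of which 2 rose in R14del hearts and 0 after infarction by edgeR, limma-voom or DESeq2, or at an unadjusted p under 0.05. The markers summed to 5.85 to 12.4 CPM in R14del hearts, against 2.67 to 3.46 CPM in wild type, and to 5.66 to 14.5 CPM in infarcted hearts, against 4.44 to 8.41 CPM in shams. Their part in these rises was not tested.

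Vessel and signalling genes differed as well. Kdr, the receptor for VEGF on endothelial cells (chromosome 5, 75932827 to 75978458), had 77.1, 76, 68.8 and 92.4 CPM in R14del hearts, against 276, 296 and 378 CPM in wild type, and 279, 281, 256 and 261 CPM in infarcted hearts, against 198, 267, 311 and 296 CPM in shams. It fell to 0.248 in R14del hearts, and the infarction effect was 1.01-fold with a 95% log2 interval of -0.27 to 0.29. Endothelial markers moved both ways: of 15, 5 rose and 8 fell in R14del hearts, beside 29.7% and 27.4% of all genes tested. After infarction 0 were called by edgeR, DESeq2 and limma-voom (2 at an unadjusted p under 0.05), beside 9.2% of all genes by edgeR. Vwf, the von Willebrand factor gene, rose 6.9-fold in R14del hearts. Edn1, endothelin, and Ece1, the enzyme that activates it, rose 8.47-fold and 2.99-fold in R14del hearts, at 0.842 and 1.02 after infarction, and Npr3, the clearance receptor for natriuretic peptides, rose 5.88-fold (1.36-fold after infarction). Ace, which makes angiotensin II, was shared, at 4.96-fold and 2.11-fold. Cdkn1a, the cell cycle inhibitor p21, had 353, 287, 212 and 152 CPM in R14del hearts, against 15.1 to 31.6 CPM in wild type, and 23.6 to 51.8 CPM in infarcted hearts, against 13.9 to 35.1 CPM in shams, a rise of 10.6-fold in R14del hearts.

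**Figure D3:**
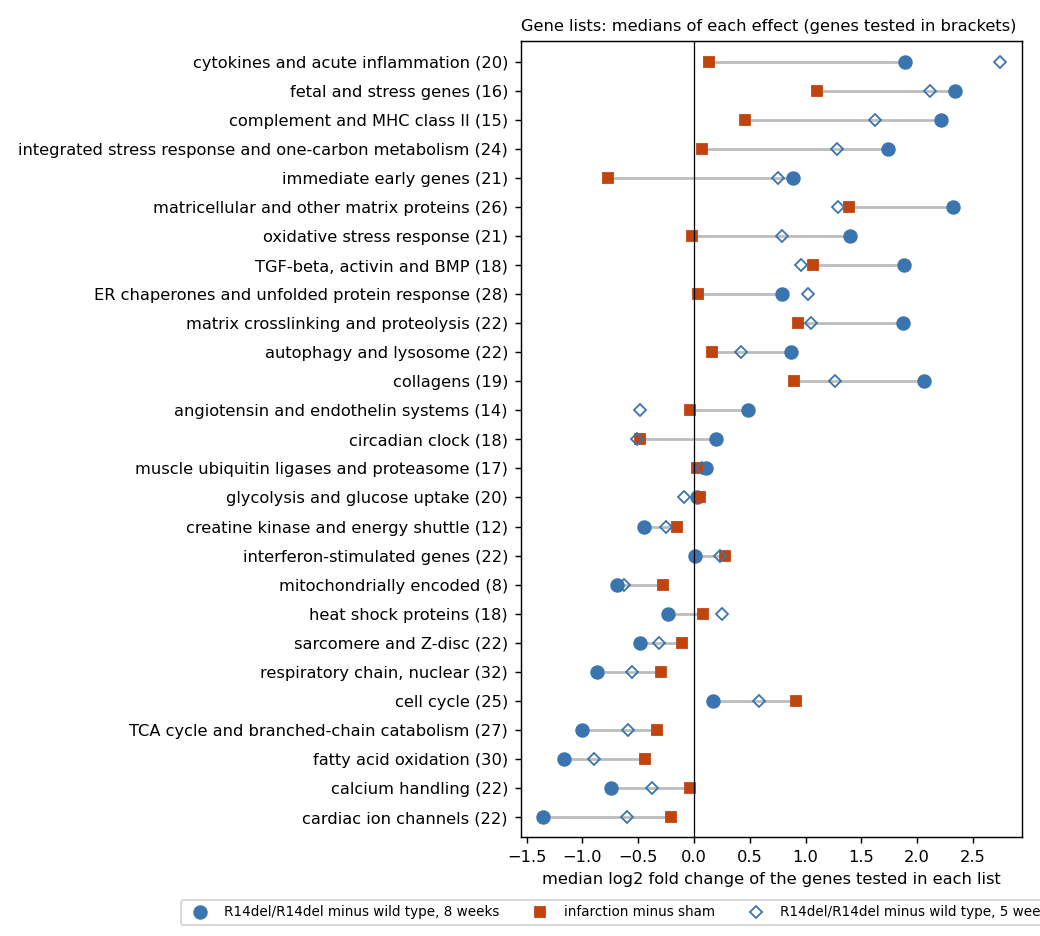
Median log2 fold change of the genes tested in each of 27 lists by function, with filled circles for R14del hearts of 8 weeks, squares for infarction and open diamonds for R14del hearts of 5 weeks, ordered by the median difference. For endoplasmic reticulum chaperones the circle is at 0.79 and the square at 0.04, for matricellular proteins at 2.32 and 1.39, and for cell cycle genes the circle is at 0.17 and the square at 0.91.

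Proliferation genes were higher after infarction more than in R14del hearts of 8 weeks. Of 25 cell cycle genes, 1 rose and 4 fell in R14del hearts, and 7 rose and 1 fell after infarction, or 3 and 1 with the 20-week shams alone. The difference was negative for 6 and positive for 1. In R14del hearts of 5 weeks edgeR called 9 cell cycle genes higher and 0 lower (median log2 change 0.58), beside 22.3% and 21.4% of all genes tested there. Mcm5, a subunit of the replicative helicase (chromosome 8, 75109569 to 75128439), had 4, 2.59, 2.36 and 4.32 CPM in R14del hearts, against 6.12, 6 and 7.35 CPM in wild type. In infarcted hearts it had 8.62, 8.63, 10.7 and 8.35 CPM, against 4.63, 3.02, 4.68 and 2.7 CPM in shams. It was lower in all R14del hearts and higher in all infarcted hearts than in any of their controls (0.511-fold and 2.39-fold, adjusted p of the difference 0.000127). Mcm2 of the same helicase was at 0.423 and 1.87, and Rrm2, a subunit of ribonucleotide reductase, was infarction-specific at 0.925 and 2.11. The opposite call of Mcm5 was kept with the 20-week shams alone (adjusted p of the infarction effect 0.0264), and that of Mcm2 was lost there (adjusted p = 0.0679).

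Among the 17 opposite genes higher in R14del hearts were H19 and Igf2, neighbouring imprinted genes of fetal growth. H19 had 57.4, 87, 77.3 and 48.6 CPM in R14del hearts, against 12.9, 11.2 and 14.2 CPM in wild type, and 7.79, 6.50, 6.79 and 5.03 CPM in infarcted hearts, against 9.35, 7.61, 12.4 and 16.9 CPM in shams. R14del hearts lay above wild type without overlap, and 1 infarcted heart lay within the range of the shams. The rise was 5.3-fold in R14del hearts and the infarction effect 0.564-fold, a call that was lost without sham replicate 4 (adjusted p = 0.135) and without infarct replicate 2 or 3 (adjusted p = 0.102 and 0.0714). Igf2 was at 1.94 and 0.523, and its infarction call (adjusted p = 0.0496) was lost when infarct replicate 1, 2 or 3 or sham replicate 2 or 4 was left out. Immediate early genes, which turn on within minutes of a stimulus, also split: of 21, 10 rose in R14del hearts and 3 fell after infarction, with 0 falls in R14del hearts and 0 rises after infarction by edgeR, DESeq2 and limma-voom and at an unadjusted p under 0.05. The difference was positive for 11. The rises in R14del hearts numbered 5 without R14del replicate 2 and 6 without wild type replicate 1 or 3 or R14del replicate 4, and the positive differences 7 without sham replicate 4, infarct replicate 3 or 4, any wild type heart or R14del replicate 2. The 3 infarction falls were lost without sham replicate 2 or 4 or infarct replicate 3 or 4, became 1 without wild type replicate 1, were 8 without sham replicate 1, and were 6 with the 20-week shams alone. Egr1, an early transcription factor, was called in neither effect while its difference was called (adjusted p = 0.0352), but not without sham replicate 2 or 4 or infarct replicate 1 or 3. It had 24.7, 56.6, 35.9 and 54.9 CPM in R14del hearts, against 30.4, 22.7 and 23.5 CPM in wild type, and 170, 288, 143 and 88.9 CPM in infarcted hearts, against 87, 541, 466 and 361 CPM in shams. All surgery hearts stood above all hearts of the mutant set, and the lowest sham lay below all infarcted hearts.

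Few genes were infarction-specific, and some of these rested on 1 or 2 libraries. Ighm, an immunoglobulin chain, had 8.54, 9.35, 4.62 and 15.1 CPM in R14del hearts, against 10.4, 10.1 and 11.8 CPM in wild type, and 136, 23.9, 88.8 and 20.9 CPM in infarcted hearts, against 9.79 to 12.3 CPM in shams. Ighm was infarction-specific also without infarct replicate 1, the highest of these (3.98-fold). Of 6 B cell markers tested, Ighm among them, 1 rose and 1 fell in R14del hearts and 2 rose after infarction. They summed to 9.60 to 34.4 CPM in R14del hearts, against 13.6 to 16.1 CPM in wild type, and to 30.8 to 213.5 CPM in infarcted hearts, against 14.1 to 22.2 CPM in shams. Car4, a carbonic anhydrase, was at 0.914 in R14del hearts and fell to 0.442 after infarction, at 9.53, 8.54, 14.6 and 14.4 CPM against 20.6 to 31.7 CPM in shams. It was infarction-specific also with the 20-week shams alone (adjusted p of the difference 0.0366). Timp4, an inhibitor of matrix proteases, was at 1.04 in R14del hearts and fell to 0.461 after infarction, a call lost without sham replicate 2 (adjusted p = 0.0561); its class was also lost without wild type replicate 1. Fasn, fatty acid synthase, had 335 CPM in infarct replicate 1 and 43.8 to 116 CPM in the other infarcted hearts, and its class was lost without that library (adjusted p = 0.0949), without sham replicate 2 or 4, wild type replicate 1 or 2 or R14del replicate 3, and by limma-voom. Of 5 adipocyte markers tested, 1 rose in R14del hearts and 4 after infarction by edgeR, as by DESeq2, and 0 in either by limma-voom. The difference was called for 0 of them, and 0 were infarction-specific. Without infarct replicate 4, edgeR called 5 higher in both diseases, with a negative difference for 2. The markers summed to 7.01 to 24.3 CPM in R14del hearts, against 3.27 to 4.83 CPM in wild type. They summed to 3.14 to 99.2 CPM in infarcted hearts, against 1.09 to 12.0 CPM in shams. Adipoq, or adiponectin, had 9.11, 13.1, 7.24 and 0.988 CPM in infarcted hearts, so that replicate 4 was near the shams (0 to 0.850 CPM). It was a shared rise, at 3.88-fold in R14del hearts and 20.0-fold after infarction, without a called difference (adjusted p = 0.123).

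Of the mutant-specific genes with the most extreme differences, rises were mostly at low levels outside R14del hearts. Falls such as Itgb6 were at low levels in R14del hearts instead. Chil1, a chitinase-like protein of inflamed tissue, had 13.9, 27.2, 24.3 and 9.77 CPM in R14del hearts, against at most 0.186 CPM in wild type, and 1.53 to 5.79 CPM in infarcted hearts, against 0.725 to 1.70 CPM in shams. Lcn2, lipocalin 2, an iron-sequestering acute phase protein, had 34.6, 54.1, 38.1 and 17.6 CPM in R14del hearts, against 1.14 to 1.79 CPM in wild type, and 0.898 to 2.32 CPM in infarcted hearts, against 1.59 to 11.7 CPM in shams. R14del hearts stood clear of every other heart for both genes. Among the falls, Itgb6, an integrin subunit, had 0.706, 0.457, 0.103 and 1.13 CPM in R14del hearts, against 20.9 to 21.1 CPM in wild type, and 14.2 to 22.9 CPM in infarcted hearts, against 20.3 to 28.8 CPM in shams. Ky, a protein needed for muscle integrity, was at 0.0362 in R14del hearts and 0.679 after infarction. Alb was also mutant-specific by the test, but R14del hearts held at most 0.0508 CPM and wild type hearts 0.0562, 5.13 and 7.69 CPM, so no fold is given.

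R14del hearts of 5 weeks gave libraries that none of these classes had used. In the fit of 4 R14del and 4 wild type hearts of that age, 2969 of 13323 genes tested (22.3%) were higher and 2852 (21.4%) lower; by library totals alone the split was 5388 and 1411. Of the shared rises tested there, 514 of 642 (80.1%) were already higher at 5 weeks and 11 lower, beside 22.2% and 21.5% of all genes in both fits. Shared falls were lower in 279 of 381 (73.2%). Of the mutant-specific genes, 976 of 1846 rises (52.9%) were higher at 5 weeks and 115 lower, and 1120 of 2005 falls (55.9%) were lower and 42 higher. Whether the shares of the classes differ was not tested, and the classes also differ in the size of the 8-week change that defined them.

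**Figure D4:**
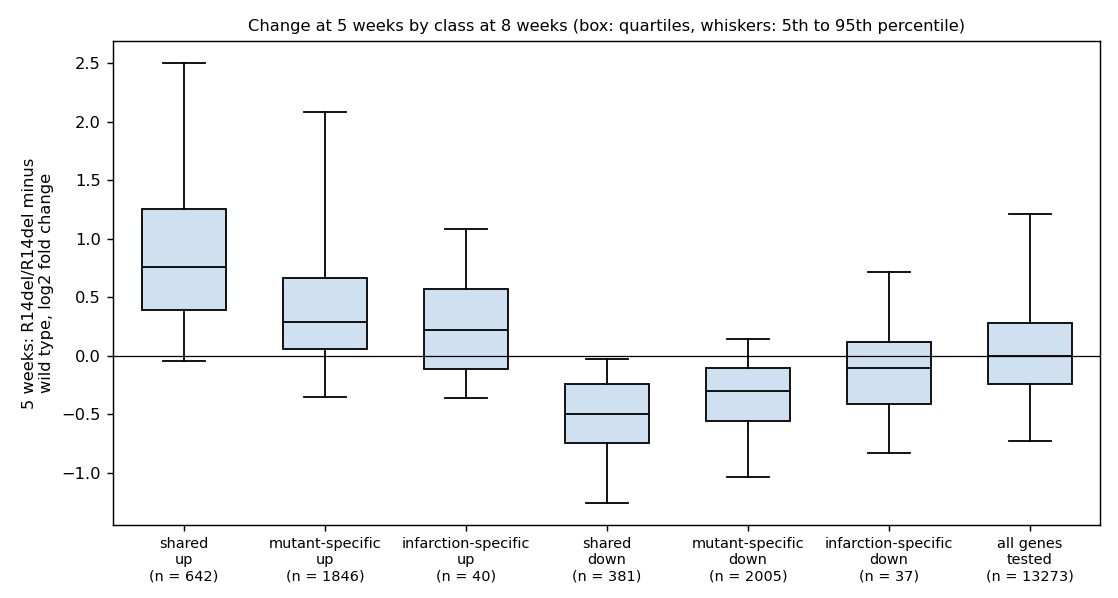
Log2 fold change between R14del and wild type hearts of 5 weeks for genes grouped by their class at 8 weeks and for all genes in both fits; boxes give quartiles and median, whiskers the 5th to 95th percentile. The medians are 0.76 for shared rises, 0.29 for mutant-specific rises, -0.49 for shared falls and -0.31 for mutant-specific falls.

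Stress genes were already higher at 5 weeks. Of the endoplasmic reticulum genes 25 of 28 were higher, with a median log2 change of 1.02, of the integrated stress response 20 of 24 (median 1.28), and of the natriuretic and stress genes 16 of 16 (median 2.12). Fatty acid oxidation was lower for 30 of 30 genes. Other mutant-specific genes were not higher at 5 weeks: the log2 change was -0.17 for Edn1, -0.26 for Npr3, -0.20 for Ddit4, -0.20 for Vwf, -0.14 for Bnip3, a mitophagy receptor 3.75-fold higher at 8 weeks, and -0.39 for Per1, a clock gene 2.63-fold higher at 8 weeks. None of these 6, picked after their values were seen, was called at 5 weeks. Of the 14 angiotensin and endothelin genes tested at 8 weeks, 7 were higher and 2 lower in R14del hearts then, and 1 was higher and 7 lower at 5 weeks. The 5-week and 8-week effects were fitted apart, and the difference between ages was not tested.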

How the data were processed

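The authors deposited 1 table of raw counts per gene for all 39 libraries. Per the submitters' processing notes, the tools include STAR 2.7.3a and featureCounts from Subread 2.0.0, with genome build mm10. Per the labels' protocols, RNA was extracted with Trizol and made into stranded TruSeq mRNA libraries. How strand was handled in counting, and which annotation release was used, is not given in these sources, which leaves overlapping genes, antisense genes and near-identical copies uncertain. Of the 38293 IDs in the table, 36429 were named with GENCODE for GRCm38, and unnamed IDs held 0.13% of the counts. Totals ranged from 9402904 to 18396603 counts per library among the 15 used.

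Groups came from the labels. Counts were filtered with filterByExpr, scaled by TMM and tested with edgeR 4.0.16 (quasi-likelihood, R 4.3.3) in 1 fit of 15 libraries, which gave the mutant effect, the infarction effect and their difference. The 5-week hearts had a fit of their own. P-values were adjusted by Benjamini-Hochberg over all genes tested, and a call needed an adjusted p under 0.05. Standard errors were taken as the size of the log2 effect over the root of its F statistic. CPM values are TMM-scaled and not per length. The tests were also run on simulated counts with few changed genes and no infarction effect. Far more genes were called in these data, so that run does not check the calls made here. Among 21 pairs of replicates 0 were identical, and chi-square per gene was 5.53 to 97.4 over genes with at least 50 counts. Where the labels name no separate animals, p-values measure only the spread between these libraries.

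The members and gene lists were chosen with earlier results of these data known. Genes were named by rule among those averaging at least 5 CPM in a group: the 6 largest and 6 smallest differences among mutant-specific genes, the 6 shared rises and 6 shared falls with the largest smaller effect, 4 opposite genes of each sign, 5 infarction-specific rises and 5 falls, 12 disease markers, and for each list the mutant-specific and the shared gene of smallest p. This named 107 genes, some of which are not reported here. Other genes were named after their values were seen. Promoter sequences are those of RefSeq for GRCm38.p6. Alternatives were DESeq2 1.42.0, limma-voom (limma 3.58.1), other scalings and filters, a fit of all 39 libraries, the 20-week shams alone, a minimum change of 1.5-fold, a replicate block, and leaving out each library.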

Additional observations from a re-analysis of the deposited data

Results flagged for a closer look

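The test of the difference between the mutant and the infarction effect called 4707 genes. Apart from that, 321 sets of 4 libraries were examined for a single value far from the other 3, for the 107 genes named by rule, by Dixon's ratio of the gap to the range. In 23 sets (7.17%) one library stood apart, where chance gives about 1 in 20. Infarct replicate 2 and sham replicate 4 held 5 each.

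Among R14del hearts, replicate 1 had 1177 CPM of Ckm (385 to 446 in the others), 37.6 CPM of Ctsk (68.2 to 71.8) and 1.88 CPM of Msln (7.77 to 8.83). Replicate 2 had 22.8 CPM of Igkc (3.18 to 3.94) and 0.0508 CPM of Alb (0 in the others). Replicate 4 had 4.8 CPM of Amy1 (8.12 to 8.67), 3.29 CPM of Cdh19 (5.75 to 6.05) and 41.5 CPM of Fstl3 (35.2 to 35.6).

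Among infarcted hearts, replicate 2 had 2031 CPM of Acta1 (1073 to 1184 in the others), 5976 CPM of Ankrd1 (3656 to 3770) and 12.7 CPM of Myc (6.74 to 7.21). It also had 146 CPM of Pfkp (102 to 108) and 584 CPM of Synpo2l (349 to 383). Replicate 1 had 2.24 CPM of Rpph1 (1.16 to 1.33), and replicate 3 had 10.7 CPM of Mcm5 (8.35 to 8.63).

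Among shams, replicate 4 had 8858 CPM of Myh7 (291 to 996 in the others) and 13730 CPM of Myh6 (24460 to 25610). It also had 250 CPM of Hspd1 (320 to 333), 350 CPM of P4hb (243 to 255) and 2.59 CPM of Rpph1 (1.45 to 1.59). Replicate 1 had 8.03 CPM of Amy1 (15.6 to 16.8) and 4.63 CPM of Cilp2 (0.104 to 0.501), and replicate 2 had 2.3 CPM of Sfrp2 (5.71 to 6.04).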

How the results depend on the processing

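With a minimum change of 1.5-fold, 1176 genes had a different effect, 3413 a mutant effect and 129 an infarction effect, 108 were shared, 1110 mutant-specific, 2 infarction-specific and 1 opposite, and 1304 changed at 5 weeks. It left 6 shared collagens (13 without the minimum) and 13 shared matricellular genes (21). Mutant-specific falls in calcium handling were then 4 (10), and mutant-specific rises of the integrated stress response 8 (14). In the fit of all 39 libraries 2042 genes had an infarction effect, 134 were infarction-specific and 83 opposite. Against the 20-week shams alone these were 655, 35 and 10, and 569 genes were shared, 491 of them among the 1064 shared genes. DESeq2 gave 52 opposite genes and the replicate block 75; the cause was not tested. Without 1 library, infarction effects ranged from 543 (without infarct replicate 2) to 1694 (without R14del replicate 1). Shared genes ranged from 474 to 1365 without the same libraries, infarction-specific genes from 26 (without sham replicate 2) to 140 (without R14del replicate 4), and opposite genes from 11 (without infarct replicate 2) to 87 (without R14del replicate 4). Of the 1064 shared genes, 471 were kept without infarct replicate 2, 557 without sham replicate 2 and 692 without sham replicate 4. The deviations of same-numbered mutant and wild type libraries from their group means correlated at -0.01, 0.04 and -0.10 at 8 weeks. At 5 weeks they correlated at 0.01, 0.07, 0.03 and 0.09. These values gave no sign of pairing by number, but they cannot exclude it, because each group mean rests on few libraries. Of 2675 values of the 107 named genes under the alternatives, 2524 kept direction and call, 126 lost the call, 25 gained one and 0 reversed. Age, surgery and library depth differ between the mutant and surgery sets and cannot be told apart from the difference between the effects.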

Other observations

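Of 12 smooth muscle and pericyte markers, 2 rose and 5 fell in R14del hearts, and 1 rose and 1 fell after infarction (0 and 0 without infarct replicate 1 or 2, 0 and 1 without sham replicate 2 or 4, and 1 and 2 without R14del replicate 1 or 4). Of all genes tested, 29.7% rose and 27.4% fell in R14del hearts, and 5.68% rose and 3.52% fell after infarction. Abcc9, a subunit of the potassium channel of pericytes and muscle, had 135, 53.5, 61.3 and 59.2 CPM in R14del hearts, against 361, 378 and 419 CPM in wild type. In infarcted hearts Abcc9 had 239, 200, 246 and 299 CPM, against 360, 348, 376 and 369 CPM in shams. Both disease groups lay below their controls with no overlap. Des, the muscle intermediate filament gene, was a mutant-specific rise (2.28-fold in R14del hearts, 1.24-fold after infarction), and Myh11, the smooth muscle myosin gene, was a shared fall (0.472 and 0.736).

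Of 22 interferon response genes, 7 rose and 7 fell in R14del hearts, near the shares of all genes tested (29.7% higher and 27.4% lower). After infarction 0 of the 22 were called by edgeR, DESeq2 or limma-voom, beside 9.2% of all genes by edgeR. At an unadjusted p under 0.05 in edgeR, 3 were higher. By adjusted p edgeR called 2 rises without sham replicate 1 or against the 20-week shams alone, and 1 without infarct replicate 4. The antiviral genes Mx1 (6.16-fold in R14del hearts, 1.89-fold after infarction) and Ifit3 (2.8-fold and 1.29-fold) were mutant-specific rises, whereas Rsad2, another antiviral gene, was a mutant-specific fall, at 0.449 in R14del hearts and 0.914 after infarction.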
